A study of Homo sapiens with 4 samples.

Results

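The regions described here were the narrower stretches of accessible chromatin that had a peak in every library of the series. They were chosen by merging the peaks of the 4 lists on chromosomes 1 to 22 and X wherever peaks shared at least 1 bp, and by keeping merged regions that held a peak from all 4 lists and were under 1000 bp wide (hg19 coordinates). Of 20450 merged regions, 2316 met the rule. A further 1079 regions with a peak in all 4 lists were 1000 bp wide or more and are called wide regions below. Together these 3395 regions were 16.6% of all merged regions. Because the rule used the peak calls and the widths, the number, the width, the enrichment and the pileup of these regions are given as descriptions, without a test.

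ATAC-seq was run on RKO cells, an established human colon cancer line, with 100000 nuclei in each Tn5 reaction. The cells had been stably infected with lentivirus carrying either a control shRNA or shCHD7-2, a single hairpin against CHD7, and 2 libraries were made from each. The labels do not say whether the libraries of a group came from separate cultures, so their spread may be technical. The lists hold no measure of CHD7 itself, and how far it was depleted was not analysed here.

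In ATAC-seq the Tn5 transposase cuts DNA where nucleosomes or other proteins leave it exposed, and sequenced fragments pile up over promoters, enhancers and other regulatory DNA. A peak caller reports each stretch where the pileup exceeds the background, together with its summit, the position of the highest pileup. CHD7 is a chromodomain protein that uses ATP to move nucleosomes and is known for binding at enhancers and promoters. The genes near the regions were not analysed here, because no annotation of the build of the files was used.

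The lists held 13257 and 12092 peaks for the control libraries and 7199 and 8715 peaks for the shCHD7-2 libraries. The library background is the pileup that the caller took as typical of a library, and it was solved from fold enrichment and p value. It was 0.916 and 0.843 reads in the control libraries and 1.4 and 1.62 reads in the shCHD7-2 libraries. The lowest summit that was called stood at 6 reads in each control list and 8 reads in each shCHD7-2 list. Background and threshold thus moved with the group, and their part in the values below was not tested. Between the libraries of a group, summit reads at the 2316 regions differed by less than independent counts would. The chi-square per degree of freedom was 0.622 (control) and 0.551 (shCHD7-2). The regions were kept only if called in each list, and a summit is the highest pileup of its peak, not a count at a fixed site. These values therefore cannot tell how alike or how independent the libraries were. No peak was identical between them, and each library was counted as 1 replicate.

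Most narrower regions held a single peak in each list, though the width limit leaves little room for more. In 2248 of the 2316 regions (97.1%) each list had exactly 1 peak. The merged widths ran from 332 to 999 bp, with quartiles of 634, 747 and 861 bp, and the regions covered 1713 kb in total. The stretch shared by all 4 peaks had a median of 359 bp (quartiles 216 and 463 bp), or 49.3% of the merged width. In 33 regions no base was shared by all 4 peaks, so that the peaks were joined only through one another.

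The control lists set the outline of the regions more often than the shCHD7-2 lists. The median peak in these regions was 619 bp in control replicate 1 and 590 bp in control replicate 2. It was 470 bp in shCHD7-2 replicate 1 and 502 bp in shCHD7-2 replicate 2, so that both shCHD7-2 medians lay below both control medians (log2 ratio of group means -0.31). Both control peaks were wider than both shCHD7-2 peaks in 1057 regions (45.6%), and the opposite held in 197 regions (8.51%). Both ends of the merged region came from control peaks alone in 1056 regions (45.6%) and from shCHD7-2 peaks alone in 259 regions (11.2%). These shares were counted at the narrower regions only, so no background share is given for them. The lower width in shCHD7-2 was not particular to the narrower regions. The log2 ratio of peak width was -0.50 at wide regions and -0.39 over all regions open in all 4 lists.

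**Figure D1:**
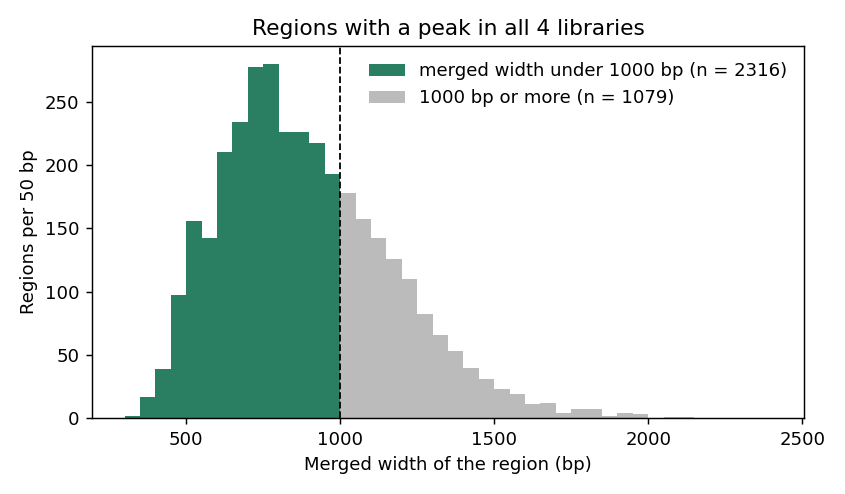
Merged width (bp) of the regions with a peak in all 4 libraries, as the number of regions per 50 bp, with the 2316 narrower regions in green and the 1079 wide regions in grey. The dashed line is the limit of 1000 bp, which cuts through one continuous distribution.

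No gap in width separated the narrower regions from the wide ones, with 4 regions at 999 bp and 6 at 1000 bp. Just inside the limit, a region on chromosome 1 from 182360154 to 182361152 had 22 and 23 summit reads in the control libraries and 16 and 22 in the shCHD7-2 libraries. The other member named by the rule at 999 bp, on chromosome 6 from 53223829 to 53224827, had 34 and 33 reads in control and 17 and 15 in shCHD7-2. Just outside, a region on chromosome 1 from 168147844 to 168148843 had 24 and 26 reads in control and 15 and 16 in shCHD7-2. The other region named there, on chromosome 2 from 3605561 to 3606560, had 41 reads in each control library and 17 and 16 in shCHD7-2. At these named regions, on either side of the limit, the shCHD7-2 libraries were at or below the control libraries.

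Width went with how often a region was open. Among the 18949 merged regions under 1000 bp, 9770 had a peak in 1 list, 4436 in 2 lists and 2427 in 3 lists, and the 2316 open in all 4 were 12.2%. Among the 1501 merged regions of 1000 bp or more, 1079 (71.9%) were open in all 4. A merged region gains width from each further peak, so width and number of lists are tied by construction.

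The narrower regions held 17.6% and 19.4% of the peaks in the control lists, and 32.4% and 26.7% of the peaks in the shorter shCHD7-2 lists. They held a larger share of the strongest peaks, and so did the wide regions. Of the top 10% of peaks by fold enrichment, 47.8% and 45.6% in control and 59.5% and 56.4% in shCHD7-2 lay in narrower regions. Wide regions held 8.60% and 9.76% of the peaks in the control lists and 16.2% and 13.6% of those in the shCHD7-2 lists. Of the top 10% they held 26.1% and 27.5% in control and 29.6% and 30.2% in shCHD7-2. The rule needs a call in each list, so membership and strength are not independent. Yet the narrower regions were not all strong: their median peak stood at percentile 78.5 and 75.6 of the control lists and at percentile 66.4 and 70.6 of the shCHD7-2 lists.

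Enrichment at the narrower regions was lower in both shCHD7-2 libraries than in both control libraries. Median fold enrichment, the ratio of summit pileup to local background, was 7.33 and 7.08 in control and 5.65 and 5.67 in shCHD7-2. The group means were 7.21 ± 0.178 and 5.66 ± 0.0134 (SD of library medians, n = 2 each), a log2 ratio of -0.35. The median -log10 p was 15.0 and 13.9 in control and 10.2 and 10.6 in shCHD7-2. These medians did not overlap between the groups.

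The raw pileup differed less. The median summit held 20 and 19 reads in the control libraries (quartiles 15 to 27 and 14 to 25) and 15 and 17 reads in the shCHD7-2 libraries (quartiles 13 to 20 and 14 to 22). The highest summits reached 75 and 69 reads in control and 73 and 84 in shCHD7-2. In reads, the group means were 19.5 ± 0.707 and 16.0 ± 1.41 (log2 ratio -0.29). Divided by the library background, they were 22.2 ± 0.498 and 10.6 ± 0.164, a log2 ratio of -1.07. The size of the difference therefore depended on whether the library background, which was higher in both shCHD7-2 libraries, was used as the scale.

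The local background is the pileup the caller expected at each peak. It also enters the fold enrichment and p value behind each call and so is given without a test. Whether reads of the peak itself enter it is not given in the sources used here, so it may not describe the surroundings alone. The median local background was 1.86 and 1.72 reads in control and 1.86 and 2.1 reads in shCHD7-2, so the groups met in reads. Over the library background it was 2.03 and 2.04 in control and 1.33 and 1.29 in shCHD7-2. The log2 ratio of group means was -0.63. Relative to the library, the local background was lower in both shCHD7-2 libraries. This ratio has a floor of 1, because the caller takes the larger of the local and the library background. Its lower quartile was 1.53 and 1.54 in control. In shCHD7-2 it was 1.04 and 1.02, close to that floor, and the part of the floor in the difference was not tested.

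Wide regions differed from the narrower ones mainly in pileup and local background, and little in fold enrichment. Their median summits held 30 and 28 reads in control and 18 and 20 in shCHD7-2. Their local background stood at 3.19 and 3.23 times the library background in control and at 1.6 and 1.59 times in shCHD7-2. Median fold enrichment at wide regions was 7.66 and 7.56 in control and 5.9 and 5.84 in shCHD7-2, close to the medians of the narrower regions. On the log2 scale, narrower regions lay below wide ones by -0.0788 ± 0.0214 in control and -0.0508 ± 0.0131 in shCHD7-2 (SD, n = 2 each). The groups differed by 0.0280, a value whose sign turned with the length of the lists and the width limit.

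Within the narrower regions, control pileup climbed with merged width and shCHD7-2 pileup barely did. In the 155 regions under 500 bp the median summit held 13 reads in each control library, and 14 and 16 reads in the shCHD7-2 libraries. In the 557 regions of 700 to under 800 bp it held 21 and 19 reads in control and 16 and 17 in shCHD7-2. In the 410 regions of 900 bp or more it held 26 and 24 reads in control and 16 and 18 in shCHD7-2. The order of the groups in reads thus turned from the narrowest class, with control lower, to the widest, with control higher. These reads were not divided by the library background, which was higher in both shCHD7-2 libraries. In fold enrichment the order did not turn, and both shCHD7-2 medians lay below both control medians in each class. The merged width holds the control peaks, so control pileup and width are not independent.

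**Figure D2:**
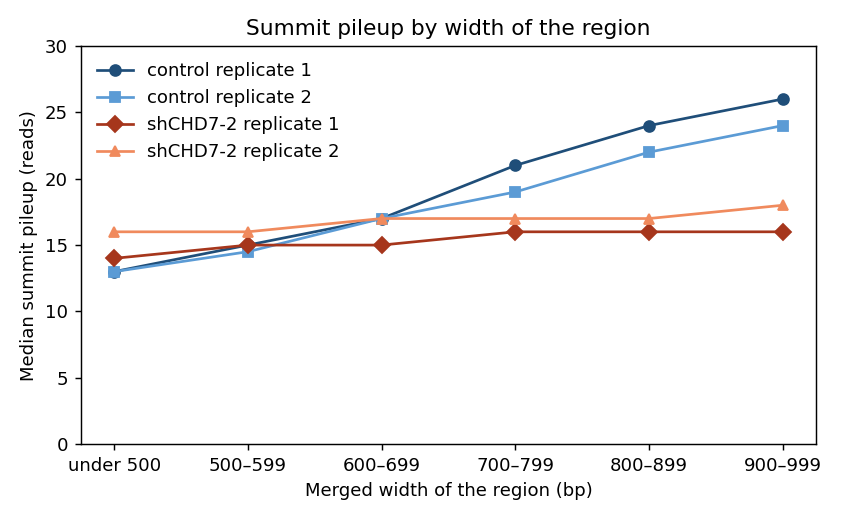
Median summit pileup (reads, 1 point per library) of the narrower regions by class of merged width (bp), for control and shCHD7-2 libraries. The control lines climb from 13 reads under 500 bp to 26 and 24 reads at 900 bp and over, while the shCHD7-2 lines go from 14 and 16 to 16 and 18.

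The local background followed the same pattern. It went from 1.32 to 2.43 reads across the width classes in control replicate 1 and from 1.26 to 2.22 in control replicate 2. In shCHD7-2 it began at 1.88 and 2.18 reads and ended at 1.9 and 2.15. Fold enrichment climbed in all 4 libraries, from 6.03 to 7.95 and from 6 to 7.79 in control, and from 5.07 to 5.86 and from 5.06 to 5.91 in shCHD7-2.

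The flat shCHD7-2 lines depended on which list the width was taken from. Sorted into 4 equal sets of 579 by the peak width in control replicate 1, median summits went from 13 to 28 reads in that library and from 14 to 25 in control replicate 2. In the shCHD7-2 libraries they went from 15 to 16 and from 17 to 18 reads over the same sets. Sorted instead by the peak width in shCHD7-2 replicate 1, median summits went from 13 to 20 reads in that library and from 15 to 21 in shCHD7-2 replicate 2. Control summits also climbed over those sets, from 18 to 25 and from 16 to 23 reads. Width in a shCHD7-2 list was thus tied to pileup in all 4 libraries, whereas width in a control list was tied to pileup in the control libraries and hardly in the shCHD7-2 libraries. These sorts were chosen after the data had been seen.

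To compare regions without the length of the lists, each region was ranked in each library by fold enrichment among the 3395 regions open in all 4 (percentile 100 is the strongest). Ranks were lower in both shCHD7-2 libraries than in both control libraries at 494 narrower regions (21.3%), against a background of 20.7% over all 3395 regions. They were higher in both at 527 (22.8%), against a background of 21.5%. At the other 1295 regions (55.9%) the ranks of the groups overlapped. Both shares were near the background. Of the wide regions, 210 (19.5%) ranked lower and 203 (18.8%) higher.

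The regions whose ranks separated were picked by that separation, so a change in rank is built into them. The median change in mean rank was -28.4 points at the 494 regions and 29.8 points at the 527, and over all 2316 it was 0.578 points. With a gap of at least 10 points between the groups, 258 regions ranked lower (11.1%, against 11% over all 3395) and 302 ranked higher (13.0%, against 11.8%). Ranked by summit pileup in place of fold enrichment, 604 narrower regions were lower (26.1%, against 30.9%) and 804 higher (34.7%, against 29.3%).

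**Figure D3:**
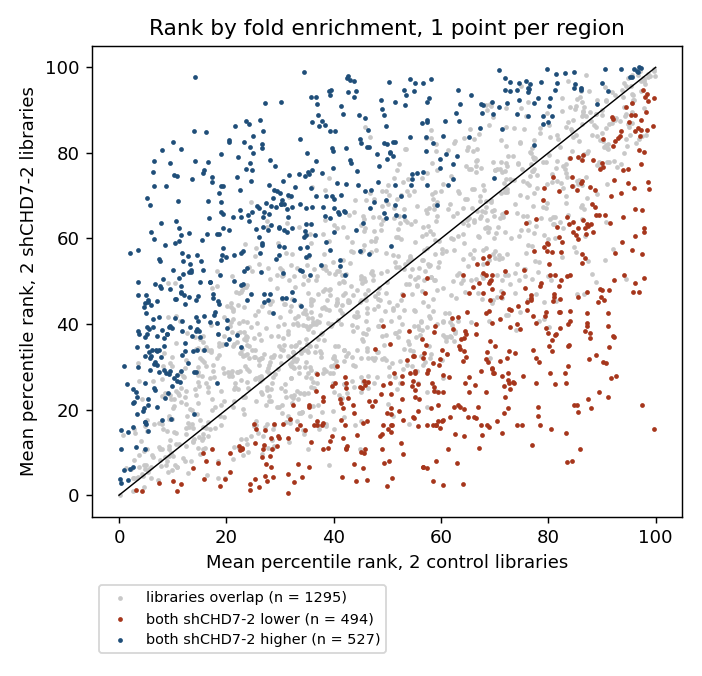
Mean percentile rank by fold enrichment in the shCHD7-2 libraries against that in the control libraries, with 1 point for each of the 2316 narrower regions. Colours mark the 494 regions that ranked lower in both shCHD7-2 libraries (red) and the 527 that ranked higher in both (blue), and the line marks equal ranks.

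Among the narrower regions, the direction of the rank shift went with width. The share that ranked lower in both shCHD7-2 libraries was 11% under 500 bp (17 of 155), 21.4% at 700 to under 800 bp (119 of 557) and 28.3% at 900 bp or more (116 of 410). The share that ranked higher went the other way, from 32.9% (51 regions) through 25.7% (143) to 13.7% (56). Over all 3395 regions the shares were 20.7% lower and 21.5% higher. The trend did not continue past the width limit, as 19.5% of the wide regions ranked lower and 18.8% higher. The merged width holds the control peaks, so ranks and width are not independent here.

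Regions also kept their order better within a group than between groups. Across the 2316 regions, Spearman's rho of fold enrichment was 0.657 between the control libraries and 0.484 between the shCHD7-2 libraries, and from 0.392 to 0.437 between a control and a shCHD7-2 library. For summit reads it was 0.795 and 0.666 within groups and from 0.287 to 0.341 between groups. These are descriptions across regions, which share the library and its depth and are not replicates.

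The regions that stood highest in all 4 libraries were taken by the lowest of their 4 ranks. The first, on chromosome 7 from 124569504 to 124570380, had a fold enrichment of 13.8 and 12.3 in control and 10.5 and 9.62 in shCHD7-2, with 75 and 69 against 47 and 49 summit reads. The second, on chromosome 9 from 82186099 to 82186994, had a fold enrichment of 11.8 and 14.7 in control, the highest of control replicate 2, and 9.28 and 9.91 in shCHD7-2. Its summit held 57 and 65 reads in control and 48 and 63 in shCHD7-2, so in reads the groups overlapped.

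Of the next 3, a pair lay on chromosome 11. The region from 95976121 to 95977076 had 50 and 53 summit reads in control and 36 and 34 in shCHD7-2. The region from 94964297 to 94964883 had 41 and 42 reads in control and 32 and 45 in shCHD7-2. On chromosome 14, the region from 81999690 to 82000653 had 56 and 47 reads in control and 38 and 34 in shCHD7-2. In reads, 3 of these 5 regions had both shCHD7-2 libraries below both control libraries, and at the other 2 the groups overlapped. These reads were not scaled by the library background, which was higher in both shCHD7-2 libraries. In fold enrichment the groups were apart at each of the 5, with control higher. At the region from 94964297, where reads overlapped, fold enrichment was 11.4 and 12.3 in control and 8.73 and 9.54 in shCHD7-2.

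The largest fall in rank was at chromosome 1 from 206137901 to 206138488. This 588 bp region had the highest fold enrichment of all narrower regions in control replicate 1, at 14.5, and 12.1 in control replicate 2. In the shCHD7-2 libraries it was 4.58 and 4.57. Its summit held 34 and 22 reads in control and 10 and 11 in shCHD7-2, where the local background equalled the library background. Its ranks were 100 and 99.4 in control and 13.6 and 17.1 in shCHD7-2 and the mean rank fell by 84.4 points. It was open in all 4 lists by a narrow margin, as the lowest summit called in the shCHD7-2 lists was 8 reads.

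The other 4 largest falls also ended close to that threshold. On chromosome 6 from 80713796 to 80714422, the summit held 33 and 29 reads in control and 11 in each shCHD7-2 library. On chromosome 2 from 24269826 to 24270791 it held 25 and 24 reads in control and 10 and 9 in shCHD7-2. On chromosome 19 from 11485258 to 11486135 it held 20 and 21 reads in control and 10 in each shCHD7-2 library. The last, on chromosome 1 from 86072553 to 86073401, went from 27 and 21 reads to 10 in each. The changes in mean rank were -76.3, -76.3, -75.7 and -75.1 points, and the groups did not overlap in reads at any of them. These falls were picked by rank of fold enrichment, which contains the summit reads, so the separation in reads is not independent.

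The largest rise in rank was at chromosome 2 from 237780062 to 237780849. Its fold enrichment was 6.25 and 4.59 in control and 8.89 and 8.86 in shCHD7-2, with 11 and 8 summit reads against 23 and 30. The mean rank rose by 83.4 points. At this region the control libraries were the ones near their threshold, where the lowest summit called was 6 reads.

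The next 4 rises were from 71.0 to 72.7 points. The region on chromosome 12 from 115371024 to 115371915 had 8 and 9 summit reads in control and 22 and 25 in shCHD7-2. On chromosome 3 from 179529098 to 179529783 the summit held 13 reads in each control library and 22 and 21 in shCHD7-2. On chromosome 6 from 6687087 to 6687812 it held 11 and 8 reads in control and 17 and 20 in shCHD7-2. The last, on chromosome 1 from 157988955 to 157989601, had 10 and 9 reads in control and 19 and 17 in shCHD7-2. In all 5 named rises, both shCHD7-2 libraries lay above both control libraries in reads as well as in fold enrichment. The rises were chosen by rank of fold enrichment, which contains the summit reads, so the 2 measures are not independent here. The reads were not divided by the library background, which was higher in both shCHD7-2 libraries.

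A region on chromosome X from 77359229 to 77359861 had the highest fold enrichment of all narrower regions in both shCHD7-2 libraries, and is named here after its values were seen. Its fold enrichment was 11.1 and 10.6 in control and 13.2 and 13.7 in shCHD7-2. Its summit held 41 and 40 reads in control and 73 and 84 in shCHD7-2. Both values ran against the lower medians of the shCHD7-2 libraries. The cells of both groups carry a lentiviral vector, and whether reads from vector DNA were counted at this region was not tested.

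The position of the summits was not used to choose the regions. Between the control libraries the median distance between summits of a region was 38 bp, and between the shCHD7-2 libraries it was 51.5 bp. For the 4 pairs of a control and a shCHD7-2 library it ran from 46 to 52 bp. The means of these medians were 49.1 ± 3.33 bp between groups (SD, n = 4 pairs) and 44.75 ± 9.55 bp within groups (n = 2 pairs). The difference of 4.375 bp was larger than the SD of the pairs between groups and smaller than that of the pairs within groups, and the 6 pairs share 4 libraries. Summits lay within 50 bp of each other at 49.1% to 56.5% of the regions, depending on the pair. In each library the median summit was 84.5 to 90.5 bp from the centre of the merged region.

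Taking all 4 summits of a region together, the outermost were a median of 159 bp apart (quartiles 60 and 306 bp). All 4 fell within 50 bp at 467 regions (20.2%), and they spread over more than 300 bp at 609 (26.3%). In wide regions the median was 295 bp, with 16.5% within 50 bp and 48.9% over 300 bp. A narrower region leaves less room for summits to differ, so this contrast is set in part by the width limit.

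Strong narrower regions had tighter summits, although they were wider. In 4 equal sets of 579 regions by mean rank, from weakest to strongest, the median spread of summits was 226, 163, 147 and 95 bp. All 4 summits fell within 50 bp at 10.0% of the weakest set and at 30.7% of the strongest. The median merged widths of these sets were 663, 727, 761 and 812 bp.

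**Figure D4:**
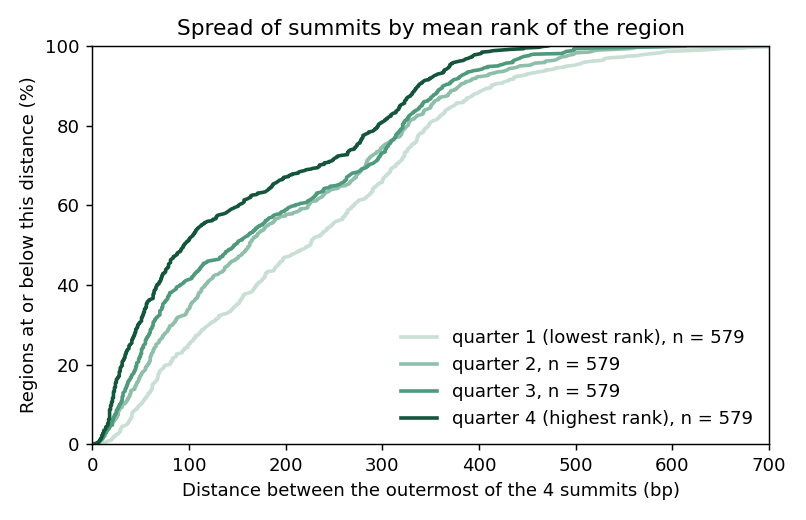
Cumulative share (%) of the narrower regions by the distance between the outermost of their 4 summits (bp), with 1 line for each of 4 equal sets of 579 regions by mean rank. The strongest set lies to the left of the weakest, with medians of 95 and 226 bp.

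As a share of the regions open in control, the narrower regions were unevenly spread over the chromosomes. Of the 8557 regions with a peak in both control lists, 27.1% were narrower regions open in all 4 (95% Wilson interval 26.1% to 28.0%, which covers counting error only). The share was 38.7% on chromosome 20 (79 of 204, 32.3% to 45.6%) and 35.9% on chromosome 8 (188 of 524, 31.9% to 40.1%). It was 17.6% on chromosome 17 (35 of 199, 12.9% to 23.5%), 18.1% on chromosome 19 (38 of 210, 13.5% to 23.9%) and 8.89% on chromosome 22 (4 of 45, 3.51% to 20.7%). Chromosomes 17, 19 and 22 together gave 77 of 454, or 17% (13.8% to 20.7%). These intervals lay apart from that of the whole. Among the 4367 regions with a peak in both shCHD7-2 lists the order turned for several chromosomes. The share was 53.0% over all of them, 49.6% on chromosome 8, 54.9% on chromosome 20, 60.3% on chromosome 17 and 64.4% on chromosome 19, and all 4 such regions of chromosome 22 were narrower regions open in all 4. The unevenness thus depended on the group whose lists gave the denominator.

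**Figure D5:**
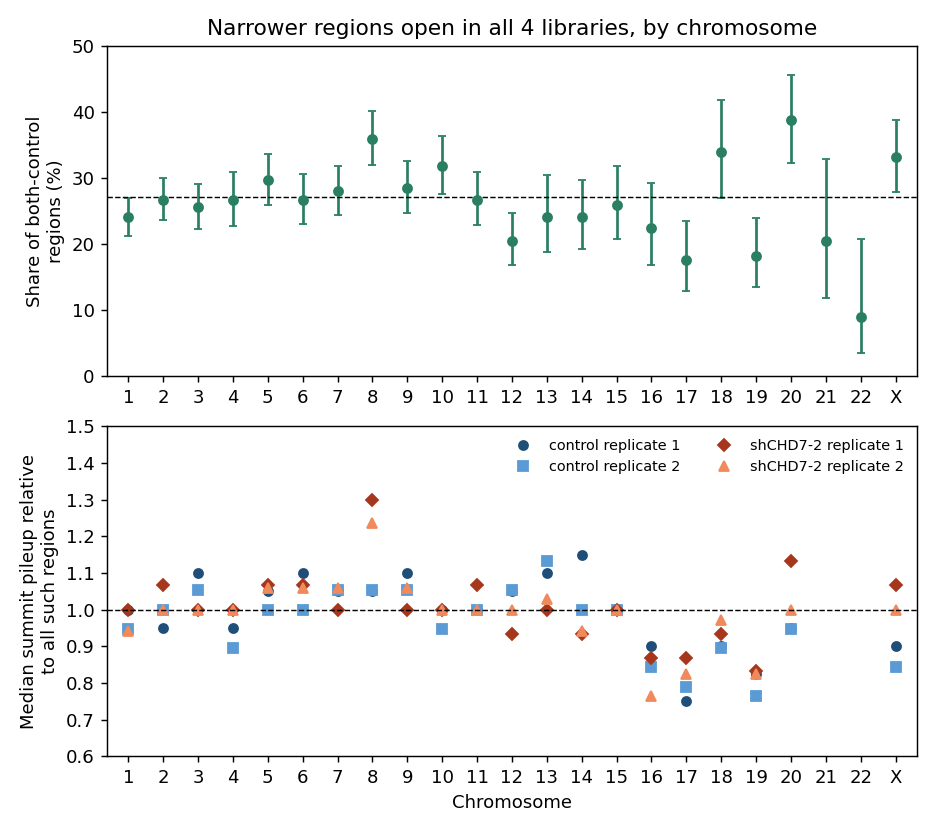
Upper panel, share (%) of the regions with a peak in both control lists that were narrower regions open in all 4, by chromosome, with 95% Wilson intervals and a line at the share over all chromosomes, 27.1%. The intervals of chromosomes 8, 10, 20 and X lie above that line and those of 1, 12, 17, 19 and 22 below it, and the lower panel gives the median summit pileup of each library on chromosomes with at least 30 such regions, relative to all of them (dashed line at 1).

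Chromosome 8 also stood out in the level of its narrower regions, mainly in the shCHD7-2 libraries. The median local background at its narrower regions was 1.22 and 1.3 times that of all narrower regions in control, and 1.45 and 1.5 times in shCHD7-2. The median summit pileup was 1.05 times that of all narrower regions in each control library, and 1.3 and 1.24 times in the shCHD7-2 libraries. In control, other chromosomes came close or lay higher. The local background of chromosome 9 was 1.20 and 1.19 times that of all narrower regions, and the pileup of chromosome 13 was 1.1 and 1.13 times. Chromosome 20, with the highest share of control regions, did not stand out in control pileup either. Its median summit pileup was 0.95 and 0.947 times that of all narrower regions in control, and 1.13 and 1.00 times in shCHD7-2. On chromosome 17 the median summit pileup was 0.75 and 0.79 times that of all narrower regions in control and 0.87 and 0.82 times in shCHD7-2. The number of copies of each chromosome in these cells was not measured here, and its part in these shares was not tested.

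The log2 ratio of pileup over library background was negative on each of the 21 chromosomes with at least 30 narrower regions. It ran from -1.26 on chromosome 14 to -0.80 on chromosome 8, with -0.82 on chromosome X. Of the 140 narrower regions on chromosome 9, 39 (27.9%) ranked lower and 21 (15%) higher in both shCHD7-2 libraries, against 20.7% and 21.5% over all regions open in all 4. Of the 192 on chromosome 2, 30 (15.6%) ranked lower and 50 (26%) higher. These chromosomes were picked after their values were seen.

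Narrower regions lay about as far from other accessible DNA as the rest. The median distance to the nearest other merged region was 33.5 kb, against 43.7 kb for wide regions and 34.5 kb for regions open in 1 to 3 lists. Another region lay within 10 kb of 514 narrower regions (22.2%), of 14.0% of wide regions and of 24.1% of the rest. The nearest other region open in all 4 was a median of 168 kb away, and within 10 kb at 108 narrower regions (4.66%). For wide regions the nearest other region open in all 4 was a median of 154 kb away, and within 10 kb at 30 (2.78%). Most narrower regions thus stood alone among the regions open in all 4, and so did most wide regions.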

How the data were processed

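ATAC-seq peak lists of 2 control and 2 shCHD7-2 libraries of RKO cells were analysed, with groups and replicate numbers taken from the sample titles. The submitters' processing notes name hg19, Bowtie2 2.2.5, SAMtools 1.9, MACS2 2.1.2 and deepTools 3.3.0, without roles or order. The shift of reads for Tn5, the removal of duplicates and the settings of the caller are not given in the sources used here, and each could change which peaks were listed. The authors deposited 1 list per library in the narrowPeak layout. The deposited score of a peak was the whole part of 10 times its -log10 q value in 99.97% of cases and was not used further. The authors' fold enrichment, a ratio of summit pileup to local background, the deposited -log10 p value and -log10 q value, and the deposited summit offset were used as listed. No listed peak was narrower than 200 bp.

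The lists hold no read totals. Summit reads and local background were solved from fold enrichment and p value, taken as (k + 1) / (b + 1) and as a Poisson tail above k at mean b. A whole number of reads was found for 100% of peaks within 0.001 in -log10 p. For 27 and 34 peaks of the control lists, 2 solutions were possible and the one with a background below that of the library was set aside, a choice made after seeing the data. The background found most often in a list served as that of the library. It follows the number of reads only if reads were extended alike in all libraries, which is not given in the sources used here. Its values limit the precision, as summits rest on few reads.

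Where a library had several peaks in a region, the one with the highest fold enrichment gave the values and the widest gave the width. Levels were compared as 1 median per library. Exact two-sided permutation tests over the 6 assignments of libraries to groups were planned for the local background and for narrower against wide regions. No p-value is printed from them, because both measures enter the calls that chose the regions and the smallest p they can give is 0.333. Named regions were the 5 with the highest lowest rank, the 5 largest falls and the 5 largest rises in mean rank without overlap of the groups, and those beside the width limit. The regions and this rule were chosen with earlier results of these data known. Same-numbered libraries did not deviate together (r = -0.0402 over the regions), so numbers were not taken as pairs. Alternatives were a -log10 q of at least 5, lists of equal length, an overlap of 50% with the shortest peak, width limits of 750 and 1500 bp, other measures and summaries, a replicate block and leaving out each library. Peaks on scaffolds were kept apart. Genes, motifs and sequences of the regions were not analysed here, as the gene tables at hand describe another build. The recovery of reads and the choice of regions by merging and width were tested on simulated data, and the later steps were not. Calculations were run in Python 3.11.15 with SciPy 1.17.1, statsmodels 0.14.6, pandas 2.3.3 and NumPy 2.4.6, and plots were drawn with matplotlib 3.10.9.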

Additional observations from a re-analysis of the deposited data

Results flagged for a closer look

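A region outside the chromosomes that were analysed stood higher in the shCHD7-2 libraries than in the control libraries. It lay on the unplaced scaffold Un_gl000224 from 3573 to 4259 (hg19), was open in all 4 lists and was under 1000 bp wide. Its summit pileup over the library background was 13.1 and 13.0 in control and 19.3 and 16.6 in shCHD7-2, with 12 and 11 against 27 and 27 summit reads. The other 2 scaffold regions of this kind, both on Un_gl000220, were lower on this scale in both shCHD7-2 libraries. The difference was not tested.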

How the results depend on the processing

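Of 103 alternative values, 4 changed sign. The number of narrower regions was 1045 at a -log10 q of at least 5, 1174 under 750 bp, and from 2789 to 3595 when 1 library was left out, with 3595 without shCHD7-2 replicate 1. The log2 ratio of peak width was -0.23 at the stricter q, -0.20 under 750 bp and -0.39 under 1500 bp, and from -0.40 to -0.28 without 1 library. That of pileup over library background was -0.95 at the stricter q, -1.15 with lists of equal length, -0.83 under 750 bp, -1.12 under 1500 bp, -1.01 with means, -0.29 in reads, and from -1.11 to -0.93 without 1 library. That of fold enrichment was -0.31 at the stricter q, -0.40 with lists of equal length, -0.30 under 750 bp, -0.47 with -log10 p, and from -0.36 to -0.32 without 1 library. That of local background over library background kept its direction in each setting run, from -0.75 to -0.39.

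The difference between narrower and wide regions changed sign with lists of equal length (-0.0293) and under 1500 bp (-0.0441). It was 0.0961 under 750 bp and 0.24 with -log10 p, and ran from 0.00888 to 0.0398 without 1 library. The summit offset between minus within groups ran from -5.5 to 13.0 bp without 1 library, at -5.5 without control replicate 1 and -2.5 without control replicate 2. Regions that ranked lower numbered 218 at the stricter q (20.9%, against 21.2% of all regions open in all lists), 188 under 750 bp (16%, against 20.7%), 258 with a gap of 10 points and 927 to 1301 without 1 library (33.2% to 36.2%, against 33.4% to 36.7%). Those that ranked higher numbered 236 (22.6%, against 20.5%), 327 (27.9%, against 21.5%) and 302 in these settings, 804 by summit pileup and 977 to 1358 without 1 library (35.0% to 38.5%, against 34.2% to 37.9%). Leaving out any of the 4 libraries raised both counts by over 1.5 times, since fewer libraries then had to be called and separated.

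With same-numbered libraries as a replicate block, the log2 ratios were -0.32 for width, -1.07 for pileup over library background, -0.35 for fold enrichment, -0.64 for local background and 0.0280 for narrower against wide regions, and no direction changed. Summits rest on few reads, so a shift at a single region is limited by counting error.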
